A study of Mus musculus with 21 samples.

Results

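The lung series of the N202 adaptation experiment was described as 1 group: the 4 arrays of cells taken from lung tissue at passages P1 to P4 against the 2 arrays of the parental cells (P0), 6 of the 21 arrays of the series. The arrays were taken by their labels alone. N202 is a mammary tumour line of FVB mice that carry a rat HER-2/neu transgene under the MMTV promoter, and all cells used here, parental cells included, also carried an H2B-GFP construct with G418 resistance. P0 cells were grown in vitro and never placed on tissue. P1 to P4 cells had spent 21, 42, 63 and 84 days in all on minced lung of C57BL/6 donors, revascularized in a dorsal skinfold chamber of nude mice, with G418 selection in culture between passages and a GFP sort before RNA extraction. The 4 lung arrays come from successive passages of 1 line of cells, with 1 array each, so they are not independent adaptations, and the spread between them holds the change from passage to passage as well as culture and array error. Bone marrow (4 arrays) and brain (8 arrays, 2 per passage) cultures, made the same way, were used to see where lung differed. Single arrays of N202 cells kept on breast tissue for 21 days (P1) and of a second, separate adaptation to brain for 21 and 42 days (P1 and P2) were also set beside lung. The ages of the mice were not analysed here.

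A tumour cell that lands in a foreign organ meets other matrix, other growth factors and the inflammatory signals of the tissue, and cultures taken from such a site can differ from their parents because cells changed their expression or because some subclones grew better than others. Bulk RNA cannot tell these apart, and likewise cannot tell fewer cells of a type from less RNA per cell. Pooling the passages asks which genes moved away from the parental level at P1 and held the new level up to P4.

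All values are log2 values per probe set, made with RMA (background correction, quantile normalization and median polish). Of 34760 probe sets, those with the highest condition means were kept, down to a limit of 7.33, and these gave 7301 genes. Between the arrays of the lung series and P0 the lower quartile of all probe sets was 3.55 to 3.63, except at lung P1, where it was 3.88. Over the kept probe sets the first P0 array correlated more with lung P2 (r = 0.971) than with the second P0 array (r = 0.96), and the second P0 array more with lung P3 (r = 0.966). The 5 N202 markers (Erbb2, Krt8, Krt18, Epcam and Cdh1) had mean levels of 11.5 to 11.6 in P0 and 11.4 to 11.5 on lung. All 7 fibroblast, 5 endothelial, 4 T and B cell, 3 adipocyte and 3 muscle markers lay below 7.33 in all 6 arrays, as did 6 of 7 markers of alveolar and airway epithelium, among them the surfactant genes Sftpc, Sftpb and Sftpa1. The mean level of the macrophage markers was 5.70 to 5.75 in P0 and 5.69 to 6.07 on lung, where Cd68 reached 7.49 at P4.

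Only 2 of 7301 genes were called changed over the pooled passages by limma at an adjusted p under 0.05, 1 higher and 1 lower (0.0137% of the genes tested in each direction). Both were steady: each of the 4 lung arrays lay at least 1 from the P0 mean on the same side. At the unadjusted level 158 genes were higher (2.16%) and 215 lower (2.94%) at p under 0.05, 5.11% of the genes tested. In data simulated with the same design, limma recovered 2 of 50 probe sets changed 1.5-fold, 18 of 50 changed 2-fold and 45 of 50 changed 4-fold. Most lasting changes of 2-fold or less would thus have been missed. The simulated data held all these changes and 50 of 8-fold at once. With only 2 calls in the real data, the adjustment asked for a lower unadjusted p there. The rates therefore overstate what the real test could recover, also at 4-fold. The 2 P0 arrays themselves lay 2-fold or more apart in 183 genes.

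The call with the higher level was probe set 10582545, which the array annotation assigns to Kcnma1, the pore-forming subunit of a large-conductance calcium-activated potassium channel. Its values were 5.27 and 4.84 in P0 and 13.19, 13.85, 13.51 and 13.31 at lung P1 to P4. The lung arrays were among themselves within 0.66, and both P0 arrays lay below the filter limit. The pooled change of Kcnma1 was 8.41 (standard error 0.22, n = 4 and 2 arrays, limma adjusted p = 4.6e-06). Since both P0 arrays lie below the filter limit, its size is uncertain. The call held in all runs that left out 1 array, with a highest adjusted p = 0.000225. The gene name is uncertain. The second Kcnma1 probe set, 10418053, was at 3.88 and 4.00 in P0 and 3.80, 4.17, 3.62 and 3.96 on lung, a difference of -0.05, and lay between 3.40 and 4.17 in all 21 arrays. The annotation lists 4 sequence records for the changed probe set and 20 for the flat one, with 0 in common. Probe set numbers of this array follow the genome, and 97% of named probe sets have most of their 10 nearest named neighbours on the chromosome of their own gene, but 0 of 10 neighbours of the changed probe set are on chromosome 14, where Kcnma1 lies. It sits between probe sets of Fanca and Dbndd1, both on chromosome 8. The increase is therefore that of a probe set, written Kcnma1* below, and not an established increase of channel RNA. Which RNA it measures was not determined here.

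The call with the lower level was Ms4a6d, a membrane protein of the MS4A family, whose members are known mainly from blood cells. Ms4a6d (probe set 10466210, chromosome 19) was at 7.48 and 7.86 in P0 and at 4.28, 3.67, 3.77 and 4.46 on lung. All lung values were within 0.79 of each other and below the filter limit. Ms4a6d fell by 3.62 (standard error 0.26, n = 4 and 2 arrays, limma adjusted p = 0.0046), and since the lung arrays lie below the filter limit the size is uncertain. Its call was lost without the first P0 array (adjusted p = 0.066) and without the second (adjusted p = 0.094), but not without any lung array. It was also lost without the filter on dim probe sets (adjusted p = 0.055) and with a variance trend and robust estimation (adjusted p = 0.13).

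**Figure D1:**
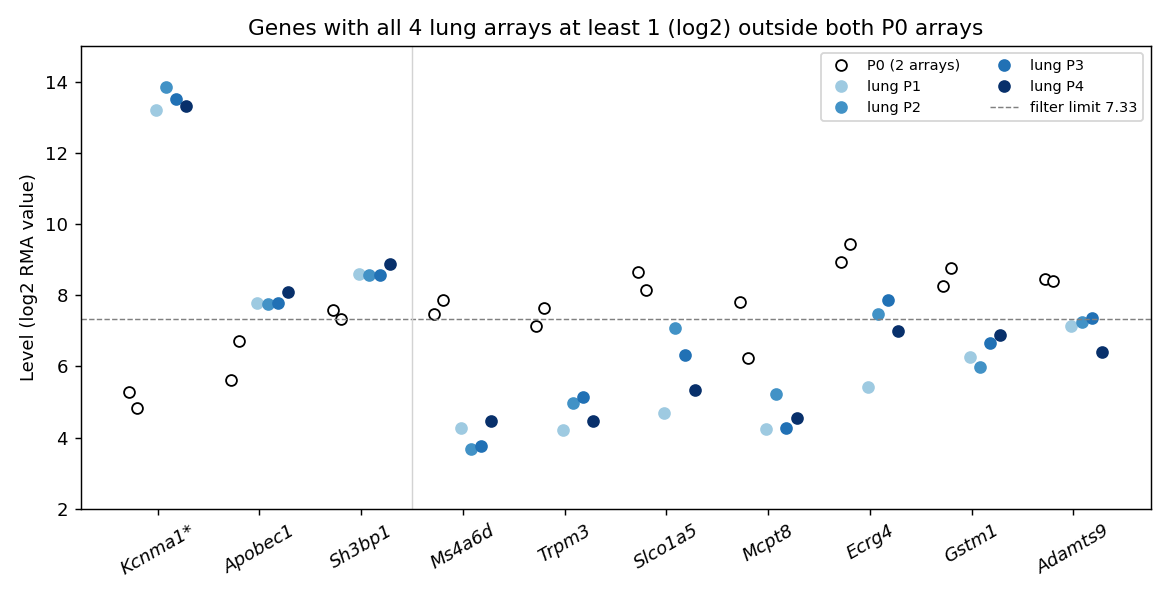
Levels (log2 RMA values, vertical axis) of the 10 genes whose 4 lung arrays all lie at least 1 above (left of the grey line) or below both P0 arrays. Open circles are the 2 P0 arrays, filled circles lung P1 to P4 from light to dark blue, and the dashed line the filter limit of 7.33. Kcnma1* marks probe set 10582545, whose gene name is uncertain. Its lung arrays lie between 13.19 and 13.85 and its P0 arrays at 5.27 and 4.84.

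Besides these calls, a wider set was picked by level alone, after the values had been seen: genes whose 4 lung arrays all lay at least 1 above or at least 1 below both P0 arrays. There were 3 such genes higher (0.0411% of those tested) and 7 lower (0.0959%), Kcnma1* and Ms4a6d among them, as the plot of their levels by array shows. The other 8 missed the pooled test. Just inside the limit was Sh3bp1, with a gap of 1.00 between its groups, and just outside was Steap2, with 0.97. Leaving out lung arrays in turn gave 10 to 15 such genes, but without the first P0 array there were 22 and without the second 44.

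Apobec1, the cytidine deaminase that edits the mRNA of apolipoprotein B, had values of 5.61 and 6.70 in P0 and 7.77, 7.76, 7.77 and 8.08 on lung. The first 3 passages were the same within 0.02, and the P0 arrays lay much further apart than the lung arrays did. The change was 1.68 (standard error 0.29, limma adjusted p = 0.37). Sh3bp1, a GTPase-activating protein for Rac, was at 7.58 and 7.32 in P0 and 8.60, 8.58, 8.58 and 8.88 on lung (change 1.21, limma adjusted p = 0.13). Both genes were highest at P4.

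Trpm3, a cation channel of the TRP family, came closest to a call among the lower genes. Trpm3 passed the filter only through P0 (mean 7.39), and no other condition mean was above 6.31. The filter thus favoured a lower lung level for Trpm3. It was at 7.14 and 7.63 in P0 and at 4.22, 4.98, 5.14 and 4.47 on lung, a change of -2.68 (standard error 0.29, limma adjusted p = 0.060). Gstm1, a glutathione S-transferase that conjugates electrophiles, was at 8.27 and 8.75 in P0 and at 6.27, 5.99, 6.65 and 6.87 on lung (change -2.06, standard error 0.27, limma adjusted p = 0.13). For both genes P0 and lung were clearly separated, and no lung array stood apart. The lung arrays of both lie below the filter limit, as do those of Slco1a5 and Mcpt8 and the P0 arrays of Apobec1, so the sizes of these differences are uncertain too.

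Ecrg4 and Slco1a5 were lower at every passage but by unequal amounts. Ecrg4, the precursor of a secreted peptide linked to growth arrest, was at 8.95 and 9.45 in P0 and at 5.42, 7.46, 7.88 and 7.0 on lung. Slco1a5, which carries organic anions into cells, was at 8.66 and 8.14 in P0 and at 4.70, 7.09, 6.31 and 5.33 on lung. Both were lowest at P1 and closer to P0 at P2 and P3, and their changes of -2.26 and -2.54 had limma adjusted p = 0.87 and 0.80. Adamts9, a secreted protease of the proteoglycan versican, was at 8.47 and 8.40 in P0 and at 7.13, 7.24, 7.37 and 6.42 on lung. Mcpt8, a serine protease of basophils, was at 7.81 and 6.25 in P0 and at 4.23, 5.23, 4.28 and 4.56 on lung, so that its P0 arrays differed more than its lung arrays did.

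Of the 10 genes, 8 had a promoter in the RefSeq table used (GRCm38.p6), all but Ms4a6d and Sh3bp1, and those of Gstm1 and Trpm3, the lower genes nearest to a call, and of Apobec1, a higher gene, are shown as the 250 bases before the annotated start, 5′ to 3′ on the strand of the gene. For Gstm1 and Trpm3, which have more than 1 annotated start, 1 is shown. Capitals mark matches on either strand to 4 motifs, whose shares were counted over the same window of 32851 promoters: the TATA box TATAAA (found in 12.4% of them), the GC box GGGCGG (in 32.7%), the AP-1 motif TGANTCA (in 6.75%) and the antioxidant response motif TGACNNNGC (in 10.2%).
Gstm1, chr3:108017819-108018068, reverse strand: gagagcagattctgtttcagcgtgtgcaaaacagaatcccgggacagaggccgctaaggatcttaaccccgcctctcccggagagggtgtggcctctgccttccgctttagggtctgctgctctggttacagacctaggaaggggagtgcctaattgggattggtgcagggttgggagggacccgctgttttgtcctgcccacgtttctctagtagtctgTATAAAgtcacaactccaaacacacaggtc
Trpm3, chr19:22138796-22139045, forward strand: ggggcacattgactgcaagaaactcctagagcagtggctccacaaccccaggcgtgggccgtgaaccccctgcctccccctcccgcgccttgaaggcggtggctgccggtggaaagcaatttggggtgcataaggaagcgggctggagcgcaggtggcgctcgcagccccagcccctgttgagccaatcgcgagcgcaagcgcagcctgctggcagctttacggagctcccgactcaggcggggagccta
Apobec1, chr6:122602445-122602694, reverse strand: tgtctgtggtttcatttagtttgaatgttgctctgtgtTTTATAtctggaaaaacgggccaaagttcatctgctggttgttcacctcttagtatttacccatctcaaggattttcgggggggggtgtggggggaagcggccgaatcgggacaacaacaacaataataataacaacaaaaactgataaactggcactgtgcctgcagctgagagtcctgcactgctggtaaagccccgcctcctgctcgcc
The Gstm1 promoter held TATAAA from 30 bases before the start, that of Apobec1 held it on the other strand from 212 bases before the start, and that of Trpm3 held none of the 4. A match is a description of these letters only.

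The pooled test takes the spread over passages as its error. When the error was taken instead from arrays of the same condition (the P0 pair and the brain pairs), with a mean for each condition of all 21 arrays, 15 genes were called, 5 higher (0.0685%) and 10 lower (0.137%). These were Kcnma1*, Rbp7, Akr1b8, Lncenc1 and Hid1, and Ms4a6d, Trpm3, Gstm1, Adamts9, Cadm1, Hsd11b1, Sema7a, Ecrg4, Slco1a5 and Emb. Here the limma adjusted p was 0.0073 for Ms4a6d, 0.0052 for Trpm3 and 0.014 for Gstm1. Trpm3 was kept through P0 alone, so the filter favoured its call here too. This fit says that the average of the lung arrays differed from P0 by more than 2 cultures of the same cells do, and not that the passages shared the change.

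**Figure D2:**
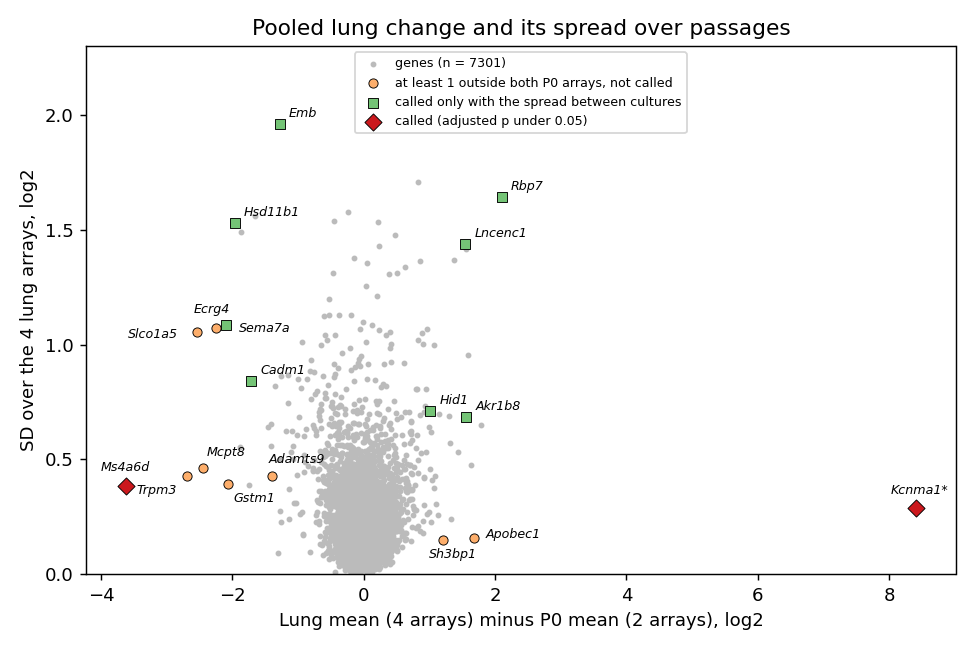
Pooled change (lung mean of 4 arrays minus P0 mean of 2 arrays, log2, horizontal axis) against the SD over the 4 lung arrays (log2, vertical axis) for 7301 genes. Red diamonds are the 2 genes called over the pooled passages, orange circles the other 8 genes at least 1 outside both P0 arrays, and green squares genes called only with the spread between cultures, which have SDs between 0.68 and 1.96. Kcnma1* is probe set 10582545.

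Several of these 15 genes swung between passages, as the levels by passage show. Emb (embigin), a glycoprotein that chaperones lactate transporters, was at 7.36 and 7.11 in P0 and at 3.55, 7.61, 5.17 and 7.49 on lung. It was low at P1 and P3 and at the P0 level at P2 and P4. Hsd11b1, which activates glucocorticoids, followed the same order, with 9.39 and 9.77 in P0 and 6.32, 9.28, 6.32 and 8.55 on lung. Sema7a, a membrane-anchored semaphorin, stood at 5.98, 8.11, 6.32 and 7.91 after 8.64 and 9.72 in P0. Hid1, a protein of secretory granule formation, ran the other way, high at P1 and P3 (8.04 and 7.87) and near its P0 values of 6.26 and 6.40 at P2 and P4 (6.75 and 6.71).

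Lncenc1, a long noncoding RNA, was at 6.59 and 6.25 in P0 and at 6.97, 9.89, 6.77 and 8.25 on lung, highest at P2.

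The remaining genes had other courses. Rbp7, a retinol-binding protein, was at its P0 level at P1 (4.77 against 5.02 and 4.73) and at 7.28, 7.15 and 8.74 afterwards. Akr1b8, an aldo-keto reductase, was at 4.47 and 4.93 in P0, at 5.61 and 5.72 at P1 and P2 and at 6.87 and 6.84 at P3 and P4. All these Akr1b8 values lie below the filter limit of 7.33, and the gene was kept through other cultures (8.41 at bone marrow P4). The P0 arrays of Rbp7, Hid1 and Lncenc1 lie below the limit too, so the sizes of these differences are uncertain. Cadm1, an immunoglobulin-family adhesion molecule, was at 8.55 and 8.48 in P0 and at 6.63, 7.96, 5.94 and 6.69 on lung. None of these 8 genes was called in the pooled test, where their limma adjusted p lay between 0.87 and 0.88.

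**Figure D3:**
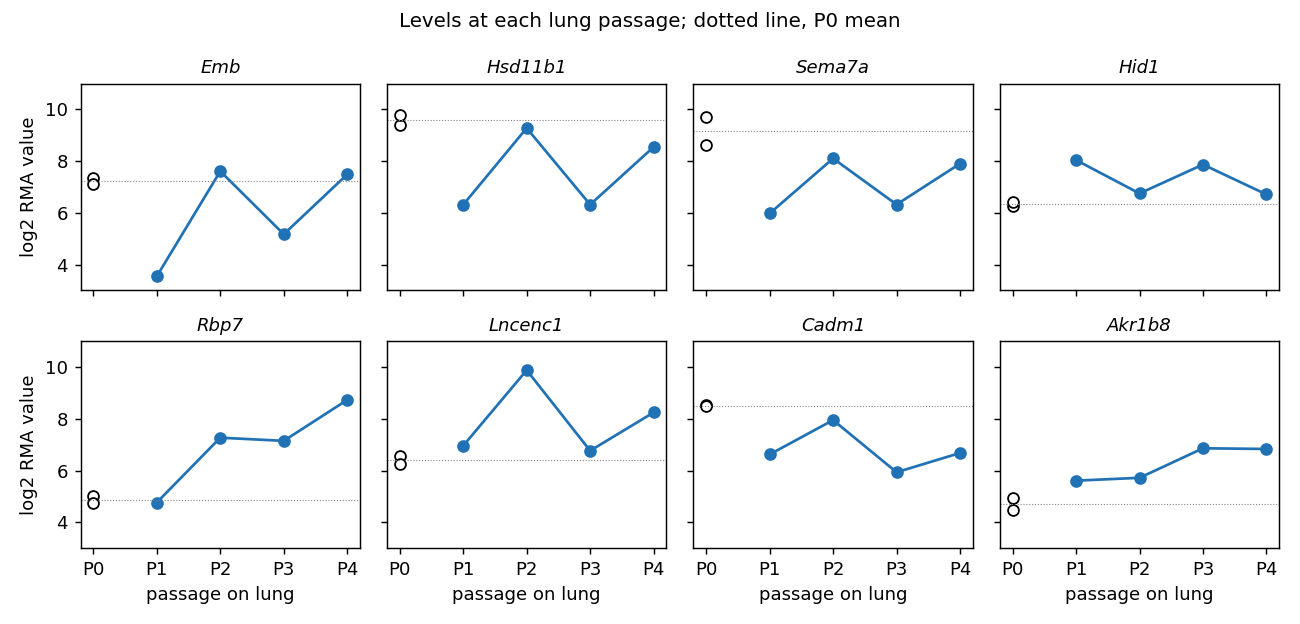
Levels (log2 RMA values, vertical axis) of 8 genes in P0 (open circles, 2 arrays) and at lung P1 to P4 (filled circles, 1 array each, joined by a line). The dotted line is the P0 mean. Emb, Hsd11b1 and Sema7a are low at P1 and P3, Hid1 is high there, and Rbp7 and Akr1b8 lie higher at P3 and P4 than at P1.

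Counted by fold alone against the P0 mean, 55, 39, 53 and 97 genes were at least 2-fold higher at P1, P2, P3 and P4, and 138, 63, 49 and 62 at least 2-fold lower. Most were 2-fold away at 1 passage only, 103 of the higher and 131 of the lower ones, and 6 and 12 were at all 4 passages. Over all genes, the 4 lung arrays lay above both P0 arrays in 428 (5.86%) and below both in 803 (11%). With equal array medians the counts were 386 above and 703 below, while after cyclic loess they were 634 above and 532 below, so the excess of lower genes was kept by the first rescaling and turned by the second. The median pooled change over all genes was -0.05.

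A slope over P1 to P4 was called for 0 genes by limma (unadjusted p under 0.05 for 259 genes, 3.55%). In simulated data this test recovered 0 of 50 probe sets that changed 2-fold between P1 and P4 and 45 of 50 that changed 8-fold. Changes of all sizes were again simulated together, so with 0 calls in the real data these rates overstate what could be recovered. Levels moved one way at every step in 542 genes, 393 rising (5.38%) and 149 falling (2.04%). The 3 highest slopes among the rising ones were those of Pilrb2, an activating receptor of myeloid cells, B3gntl1, a glycosyltransferase, and Acod1, which makes itaconate in inflamed macrophages. Pilrb2 stood at 3.9, 4.1, 6.2 and 6.5 at P1 to P4 and at 4.3 and 6.3 in P0. All these values lie below the filter limit, and Pilrb2 was kept through bone marrow P4 (7.67). Acod1 stood at 9.41, 9.98, 10.30 and 11.67 at P1 to P4, but its P0 arrays, at 7.60 and 9.89, lay about as far apart as the highest and lowest lung arrays. B3gntl1 stood at 4.96, 5.31, 5.64 and 7.40, with both P0 arrays at 5.70. It passed the filter only through lung P4, and its next highest condition was brain P4 at 6.94. The filter thus favoured its rise. The 3 lowest slopes were those of Npr3, the clearance receptor of natriuretic peptides, Adamts8, a secreted protease, and Sdc3, a heparan sulfate proteoglycan. Npr3 was at 7.71, 6.85, 6.16 and 5.57, a slope of -0.71 per passage (standard error 0.11, limma adjusted p = 0.71), and thus above its P0 arrays (6.99 and 6.32) at P1 and below them at P4. Adamts8 and Sdc3 had the same course, from 7.37 to 5.88 and from 8.40 to 7.11. Adamts8 passed the filter only through lung P1, with all its other values below the limit, so the filter favoured its fall.

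Lists of genes were read for their counts and medians beside those of all genes. In no list was a member called other than Kcnma1* among the ion channels. Of 23 DNA replication genes, 21 had a lung mean below P0, 8 of them with no overlap between groups (all genes 11%) and 0 apart on the higher side (all genes 5.86%), with a median of -0.24 against -0.05 over all genes. After cyclic loess 5 lay below without overlap, with a median of -0.19. Pola1, the catalytic subunit of the primase polymerase, was at 7.92 and 7.78 in P0 and at 7.51, 7.55, 7.45 and 7.42 on lung, and Mcm3, of the replicative helicase, at 9.0 and 9.03 and at 8.57, 8.76, 8.32 and 8.70. P0 and lung did not overlap for either gene, and neither passed the test (limma adjusted p = 0.87 for each). Of 23 mitosis and spindle genes 21 lay below P0, 5 of them without overlap, with a median of -0.17.

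Of 21 hypoxia and glycolysis genes 17 were below P0 (all genes 4360 of 7301), 7 without overlap (all genes 11%), with a median of -0.27. The median was near 0 at P3 and between -0.42 and -0.32 at the other passages. Of 2 members picked after their values were seen, Ldha, which makes lactate, was at 12.42 and 12.41 in P0 and at 12.10, 12.13, 12.21 and 12.12 on lung, and Aldoa, an aldolase of glycolysis, at 12.07 and 12.15 and at 11.70, 11.83, 11.93 and 11.73. Of the 4 members above P0, Ndrg1, a stress gene induced by hypoxia, had the largest change, at 8.74 and 8.72 in P0 and at 9.48, 9.46, 9.55 and 9.87 on lung (change 0.86, limma adjusted p = 0.41). Of 18 ERK feedback genes 15 were below P0, with a median of -0.25. Only 2 of the 18 were below without overlap, a share near the 11% of all genes. Dusp6, the phosphatase that switches off ERK, was at 10.61 and 11.07 in P0 and at 9.33, 9.70, 10.49 and 9.39 on lung. It was nearest to P0 at P3, as was the median of the whole list, which was 0.06 at P3 and between -0.52 and -0.39 at the other passages.

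Among the lists not chosen by the study, the highest medians were those of the immediate early and the chemokine lists. Of 15 immediate early and AP-1 genes 11 were above P0 (all genes 2941 of 7301), with a median of 0.29, and of 23 chemokine and inflammation genes 17 were above, with a median of 0.27. Beside the 5.86% of all genes that lay above P0 without overlap, 3 of the 15 and 2 of the 23 did, the latter a share near that of all genes. Tlr2, a receptor for bacterial lipoproteins, was at 7.75 and 8.44 in P0 and at 9.42, 9.34, 9.19 and 9.76 on lung (change 1.33, standard error 0.24, limma adjusted p = 0.39), and Myd88, its adaptor, at 8.83 and 9.25 and at 9.50, 9.32, 9.77 and 9.43. The neutrophil chemokine Cxcl5 had the larger change, 1.78, but its P0 arrays lay at 7.01 and 10.11 and overlapped the lung values of 9.52 to 10.93.

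Among lists the study itself chose on these samples, which are therefore no independent evidence of their direction, 40 of 47 genes named for transport on lung were above P0 (all genes 2941 of 7301), 8 without overlap (all genes 5.86%), with a median of 0.14. Apobec1, Tlr2 and Atp6v0a4, a subunit of the vacuolar proton pump, headed it, the last at 6.05 and 6.35 in P0 and 7.65, 6.76, 7.27 and 7.40 on lung. Of the neurobiological genes chosen for lung P1, the 16 kept higher ones had a median of 0.78 at P1 and 0.10, 0.48 and 0.19 at P2 to P4, and the 21 kept lower ones -0.86 at P1 and -0.60, -0.41 and -0.78 afterwards. The lower ones included Slit2, a guidance ligand, at 5.48 and 5.21 in P0 and at 4.38, 4.21, 3.89 and 3.79 on lung, all below the filter limit, and Sema3e, a semaphorin, at 7.83 and 8.05 and at 7.20, 6.78, 6.99 and 7.09. The 7 kept genes of lung epithelium had a median of 0.08, with 0 outside P0 in either direction, and the 4 kept genes of lung mesenchyme development had one of -0.12. The medians of the adhesion and guidance (27 genes), oxidative stress (23) and ion channel (15) lists were -0.12, -0.19 and -0.20, and those of 10 further lists lay between -0.23 and 0.11. In the adhesion and guidance list 6 genes lay above both P0 arrays and 8 below both, so its median hides changes in both directions. The counts were 1 and 2 for oxidative stress and 1 (Kcnma1*) and 4 for ion channels (all genes 5.86% and 11%).

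**Figure D4:**
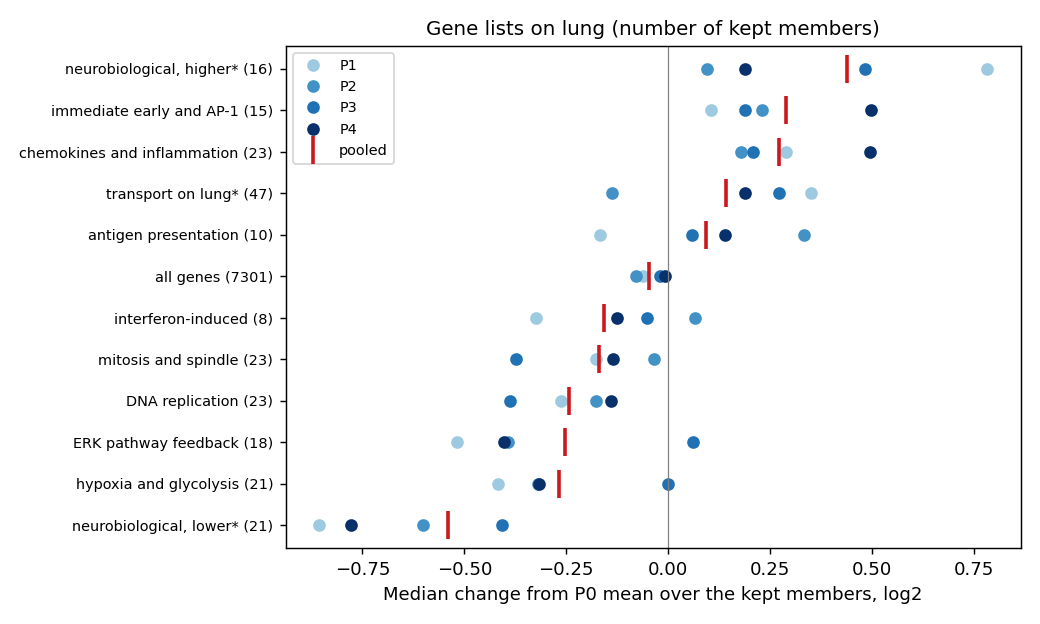
Median change from the P0 mean (log2, horizontal axis) over the kept members of 11 lists and over all genes at lung P1 to P4 (light to dark blue circles) and over the pooled passages (red bars), with the number of kept members in brackets. Lists marked with an asterisk were chosen by the study on these samples. DNA replication and mitosis genes have pooled medians of -0.24 and -0.17, and all genes one of -0.05, and all 3 lie left of 0 at each passage. At P2 the mitosis median of -0.04 is nearer to 0 than that of all genes, -0.08.

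The 10 genes at least 1 outside P0 were then followed in the other cultures, which share the P0 arrays with the lung comparison and are given side by side. Kcnma1* stood at 13.24 to 13.50 in all 4 bone marrow cultures and at 13.64 in the breast culture. On brain it was at 10.93 and 6.07 at P1 and P2 and at 13.22 and 13.48 at P3 and P4 (means of 2 arrays), and in a second brain adaptation it was at 4.21 and 5.53. Ms4a6d was at 3.20 to 4.38 in all bone marrow, brain and breast cultures of the first experiment, and at 8.93 and 8.65 in the second brain adaptation, above P0. Lung differed from bone marrow by 0.12 for Kcnma1* (limma adjusted p = 0.69) and by 0.24 for Ms4a6d (limma adjusted p = 0.61), so that neither difference passed the test. The second brain adaptation was near P0 for Kcnma1* and above P0 for Ms4a6d. Adding the breast array to the reference removed both calls (limma adjusted p = 0.72 for each). That array was itself near the lung level for both genes, so the loss was bound to follow and says nothing on the calls.

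Gstm1 likewise was at 5.45 to 6.68 on bone marrow, 5.64 to 6.54 on brain and 8.30 and 9.0 in the second brain adaptation. Trpm3 was at 4.42 to 4.61 on bone marrow and, unlike Gstm1, also low (5.22 and 4.69) in the second adaptation. Slco1a5 was lower on bone marrow (4.12 to 4.66) than on lung at any passage. Apobec1 was at 6.52 to 7.41 on bone marrow and at 4.83, 5.08, 6.59 and 7.64 on brain, below its lung values of 7.76 to 8.08 in each culture. For Apobec1 the difference of lung from bone marrow was 0.89 (limma adjusted p = 0.12) and from brain 1.81 (limma adjusted p = 0.39).

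Tested without P0, lung differed from bone marrow in 0 genes and from brain in 0 genes at an adjusted p under 0.05 by limma, while the unadjusted p was under 0.05 in 1331 genes (18.2%, with 6.99% higher and 11.2% lower on lung) and 764 genes (8.38% higher and 2.08% lower). All 4 lung arrays lay above all bone marrow arrays in 3.48% of genes and below them in 7.89%, and above and below the brain means in 5.33% and 0.972%. The number of calls against bone marrow depended on 1 array, bone marrow P1. It correlated with lung P3 at r = 0.972, above any pair of lung arrays. Without it 91 genes were called, 39 higher on lung (0.534%) and 52 lower (0.712%). Most of these calls lay just under the threshold, with a limma adjusted p between 0.0465 and 0.0497, and the lowest was 0.032. Genes at an unadjusted p under 0.05 went only from 1331 to 1520. Trim30a, an interferon-induced regulator of Toll-like receptor signalling, had the lowest p among the named genes of the full comparison, in which 1 probe set without a gene symbol was called (difference 1.35, limma adjusted p = 0.0086). It was at 7.38, 7.61, 7.44 and 6.92 on lung and at 5.86, 5.70, 4.83 and 4.97 on bone marrow, a difference of 2.00 (limma adjusted p = 0.069), with 7.07 and 7.47 in P0.

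Since no gene was called with all arrays, the antigen presentation and interferon-induced lists and their genes are described as chosen after their values were seen. Of 10 antigen presentation genes, 7 were higher on lung than on bone marrow at an unadjusted p under 0.05 and 8 higher than on brain, with 0 lower in either, beside the 6.99% and 8.38% of all genes. The median difference of the list was 0.65 from bone marrow and 0.93 from brain, and that of the 8 interferon-induced genes 0.50 and 0.85, against -0.03 and 0.05 over all genes. No member passed the adjusted test with all arrays. Without bone marrow P1, 3 of the 10 (Psmb9, Psmb8 and Tapbp) and 2 of the 8 (Oasl2 and Zbp1) did, all higher on lung. Bone marrow P1 held the highest bone marrow value of Psmb9, Psmb8, Tapbp and Oasl2. Leaving it out was thus bound to widen their differences, and these calls are no separate support. Their limma adjusted p lay between 0.036 and 0.050, and in that run 0.534% of all genes were called higher on lung. Psmb9, a subunit of the immunoproteasome, was at 7.79, 8.31, 7.91 and 7.94 on lung and at 7.22, 6.94, 6.73 and 6.97 on bone marrow (limma adjusted p = 0.069). Tapbp, which loads peptides onto MHC class I, was at 10.50 to 10.92 on lung and 9.22 to 9.94 on bone marrow, and Oasl2, an interferon-induced protein of the oligoadenylate synthetase family, at 7.38 to 8.03 and 6.09 to 6.92. The groups did not overlap for any of the 3 genes.

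Against P0 the same 10 antigen presentation genes had a median change of 0.09 on lung (all genes -0.05). Of them 1 lay above both P0 arrays and 0 below both (all genes 5.86% and 11%). The 8 interferon-induced genes had a median change of -0.16, with 3 higher and 5 lower than P0 and 0 outside both P0 arrays. Oasl2 was among the 3 higher ones and does not stand for that list. The P0 means of Psmb9, Tapbp and Oasl2 were 7.97, 10.49 and 7.40 and their lung means 7.99, 10.68 and 7.73. Their means were 6.96, 9.74 and 6.47 on bone marrow and 6.68, 9.76 and 5.93 on brain. For these 3 genes the lung mean was thus nearer to P0 than the means of bone marrow and brain, which were lower. The brain means hide a rise over passages. Tapbp was at 9.42 and Oasl2 at 4.87 at brain P1, but at 10.54 and 7.34 at brain P4, close to P0. In the second brain adaptation they were at 10.04 and 6.85 at P1 and at 10.57 and 7.43 at P2. Levels near P0 were therefore not particular to lung for these genes. T and B cell and endothelial markers were below 7.33 in all 6 arrays, with lung list means of 3.71 to 3.92 and 3.80 to 4.02, and of the macrophage markers Csf1r, Adgre1 and Lyz2 were below it and Cd14 above it in P0 and on lung. Cd68 was at 6.03 and 5.99 in P0 and at 6.36, 6.35, 6.16 and 7.49 on lung, above the limit at P4, and its part in these values was not tested.

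**Figure D5:**
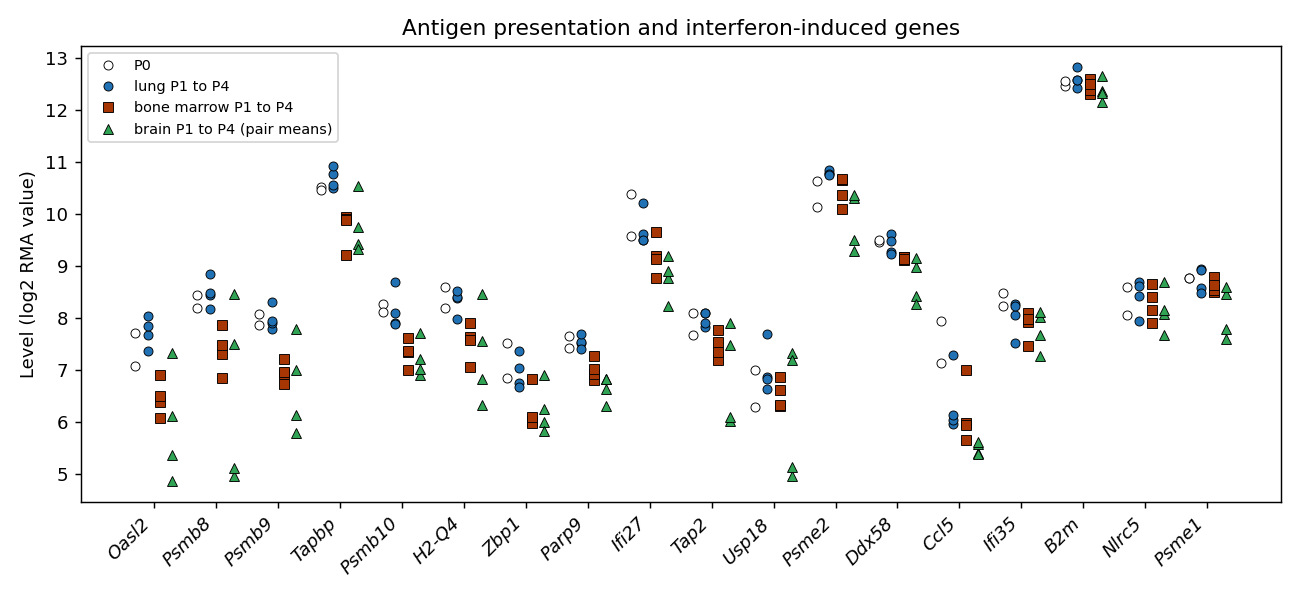
Levels (log2 RMA values, vertical axis) of the 18 kept antigen presentation and interferon-induced genes in P0 (open circles, 2 arrays), lung (blue circles, 4), bone marrow (brown squares, 4) and brain (green triangles, 4 means of 2 arrays), ordered by the difference of lung from bone marrow. For Psmb9 and Tapbp the lung points lie at or near those of P0 and above all 4 bone marrow points.

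By chromosome, medians of the kept genes relative to all other genes shifted for 0 of 20 chromosomes (limma on 1 median per array, lowest adjusted p = 0.67, and 1 chromosome at an unadjusted p under 0.05). The largest shifts were 0.15 for chromosome 14 (246 genes) and -0.15 for chromosome 19 (281 genes). Neither was even over the passages: chromosome 14 was at 0.25, 0.06, 0.28 and 0.00 at P1 to P4, and chromosome 19 at -0.29, -0.10, -0.23 and 0.03. On chromosome 14, 49 of 246 genes lay above both P0 arrays and 3 below both, and on chromosome 19, 2 of 281 lay above and 85 below (all genes 5.86% above and 11% below). Both medians were furthest from P0 at P1 and P3. Emb (chromosome 13) and Hsd11b1 (chromosome 1), picked after their values were seen, were lowest at the same passages, and a link was not tested.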

How the data were processed

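Expression was read on Mouse Gene 1.0 ST arrays of Affymetrix. The authors deposited log2 expression, summarized by RMA in Expression Console, and it was used without further scaling. Groups came from the array labels. Of 34760 probe sets, 21640 have 1 gene symbol, 1321 several and 11799 none, by the platform annotation, and 21553 identifiers matched a RefSeq gene table (GRCm38.p6). As many probe sets as the study kept were retained, those with the highest condition mean, and a gene with several was given by the one brightest on average over the series. Comparisons used limma 3.58.1 in R 4.3.3 (lmFit, eBayes, two-sided, Benjamini-Hochberg over the kept probe sets). In the pooled fit the residual degrees of freedom were 4 and the prior ones 3.4. Brain arrays of a passage were averaged. The members of the comparison and the gene lists were chosen with earlier results of these data known. Genes named are the called ones, the 3 highest and 3 lowest slopes among genes moving one way at every step, up to 4 members of a list with the lowest p, and others picked after their values were seen. Pgam1 and Etv5 were not named, since their probe set numbers lie among genes of other chromosomes. They stayed in the counts and medians of their lists, Pgam1 in hypoxia and glycolysis and Etv5 in ERK feedback and lung epithelium. Since 1 array was made per lung passage, p-values measure the spread between these arrays, part of which may be technical, and the number of arrays limits the precision. The fits were tested on simulated data. Alternatives were other filters, scalings, variance models and references, the mean over probe sets, all 21 arrays in one fit, passage as a block, and each array left out. Enrichment of annotation terms was not analysed here.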

Additional observations from a re-analysis of the deposited data

Results flagged for a closer look

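Among the 4 lung arrays, 1 lay far from the other 3 relative to their range for 4 of 70 genes tested in this way, a rate that chance alone gives for about 1 in 20 groups. Apobec1 was at 8.08 at lung P4 and at 7.76 to 7.77 at the other passages. Sh3bp1 was at 8.88 at lung P4 and at 8.58 to 8.60 at the others. Nr4a2, a nuclear receptor of the immediate early class, was at 8.47 at lung P1, the array of the 6 with the highest lower quartile, and at 7.72 to 7.79 at the others. Mcm7, of the replicative helicase, was at 9.94 at lung P2 and at 9.71 to 9.74 at the others. For Apobec1, Sh3bp1 and Nr4a2 the lone array was further from P0 than the rest, and for Mcm7 nearer to it.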

How the results depend on the processing

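The pooled comparison had 2 called genes. It also had 2 under cyclic loess, equal array medians, 7000 probe sets kept, averaged probe sets of a gene and a 2-fold limit. There was 1 without a filter and 1 with the filter on the mean over the arrays of the fit. A variance trend with robust estimation also gave 1. All 21 arrays gave 4 with lung as one group and 15 with the spread between cultures. With breast P1 added to the reference there were 0 (468 genes at an unadjusted p under 0.05 by limma). The breast culture was near the lung level for both called genes, so that run could not test their calls. Leaving out each array gave 1 to 2 calls, 1 without either P0 array. Steady genes numbered 2 with limits of 1.5-fold and 4-fold too. Genes at least 1 outside both P0 arrays, a count chosen after the data were seen, numbered 9 with equal array medians or cyclic loess and 10 to 44 with 1 array left out. Slopes over passages were called for 0 genes under every alternative with a test, and rank order alone gave 542. Lung against bone marrow had 0 calls, 2 with a variance trend and robust estimation, 9 with the spread between cultures, added after the data were seen, and 0 to 91 with 1 array left out, the 91 without bone marrow P1. Lung against brain had 0, with 575 under the spread between cultures, also added, and 0 to 1 with 1 array left out. Kcnma1* differed from bone marrow by 0.12, and by -0.00445 (without lung P2) to 0.215 with 1 array left out. Passage numbers did not pair the samples: deviations of lung and bone marrow at P1 to P4 correlated at 0.18, -0.25, -0.18 and 0.29, and of lung and brain at 0.17, -0.20, -0.17 and 0.07. With passage as a replicate block 0 genes were called by limma in either comparison, as without it (1198 and 686 at an unadjusted p under 0.05). Chromosome shifts gave 0 calls under each alternative run. The cause of these differences was not tested.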
